A study of Mus musculus with 23 samples.

Results

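Arg1, Nos2, Retnla, Mgl2, Il4ra, Stat6, Pparg, Odc1 and Klf4 are 9 genes that read out or steer the alternative activation of macrophages. They were found by symbol among the 53090 genes of each library's table, where each occurred once, and all 9 were among the 18720 genes that passed the filter on low counts. They were chosen by the measured level of Arg1, whose difference between repopulated microglia of old mice and microglia of young mice had been seen in these data, so values from that comparison are given for all members without a test. For the same reason Arg1 has no test in any comparison that holds the old repopulated libraries. Retnla had no count in most young libraries and passed the filter through the repopulated groups, so its passing is no support for a difference.

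Microglia are the resident macrophages of the brain. The study took them from female C57BL/6 mice in 4 labelled groups: Y, young (n = 7), Y-re, young after repopulation (n = 3), O, old (n = 5), and O-re, old after repopulation (n = 8). Repopulation followed depletion with PLX5622, an inhibitor of the receptor CSF1R, given in AIN-76A chow at 1200 ppm, and drug-free AIN-76A chow served as the control diet. The sources used here give no ages, length of diet or interval before sampling, and do not tie a diet to each Y and O animal. The protocols describe magnetic CD11b selection with later culture as well as RNA from sorted microglia, and the RNA text names the sorted cells. No label ties a library to a single animal, so the p-values below measure the spread between these libraries. Replicate numbers are names only and pair nothing across groups.

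Macrophages can handle the amino acid arginine in opposing ways. Nos2, inducible nitric oxide synthase, turns it into nitric oxide and is the textbook product of classical activation by bacterial ligands and interferon gamma. Arg1, arginase 1, splits it into urea and ornithine, which Odc1, ornithine decarboxylase, passes into polyamines. IL-4 and IL-13 bind receptors that contain Il4ra, the receptor activates the transcription factor Stat6, and Stat6 works with Pparg and Klf4 to turn on Arg1, Retnla and Mgl2, the classic mouse markers of the alternative state.

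Total expected counts per library lay between 43.66 M and 58.19 M (M, 1000000 counts). The 12 microglia markers checked were all present in each group, and their summed level ran from 29970 to 36290 CPM (counts per 1000000 counts, TMM-scaled) in Y, 25900 to 30170 in Y-re, 11340 to 29850 in O and 10670 to 33890 in O-re. Y replicate 3 had the fewest genes with a count, 16399. Numbers in the titles fall into 2 runs over the groups, 1 to 11 and 12 to 24; no label calls these batches, and all Y-re libraries are in the higher run. Comparisons were therefore also fitted within each run.

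Arg1 varied widely within the groups. In young libraries it had a lowest, median and highest value of 0.528, 0.961 and 18.65 CPM. The 3 young repopulated libraries held 3.44, 17.4 and 0.861 CPM. The 5 old libraries held 1.46, 54.7, 507, 29.7 and 84.5 CPM, in the order of replicates 1 to 5. In the 8 old repopulated libraries Arg1 ran from 2.57 through a median of 74.3 to 619 CPM. All 4 groups therefore overlapped: 4 of 5 old libraries lay above every young library, and old replicate 1 lay among the young ones. Within a group the highest library exceeded the lowest by 35.3-fold in Y, 20.2-fold in Y-re, 346-fold in O and 241-fold in O-re.

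**Figure D1:**
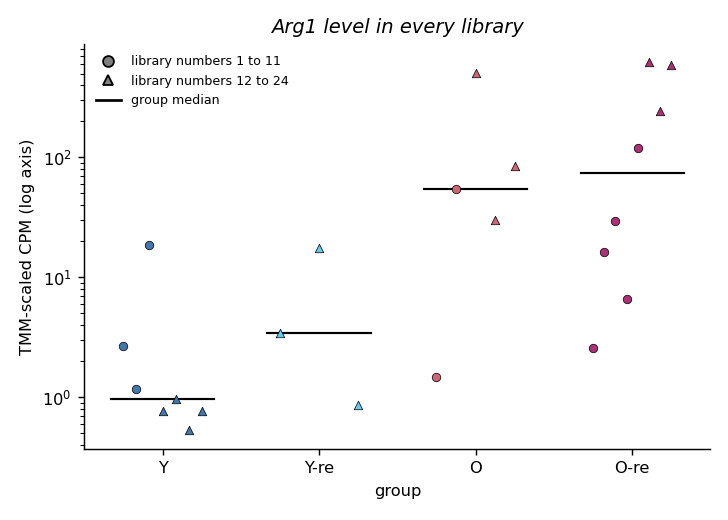
Arg1 level (TMM-scaled CPM, log axis) in each library by group, with circles for library numbers 1 to 11, triangles for 12 to 24 and a bar at the group median. Medians were 0.961 CPM in Y, 3.44 in Y-re, 54.7 in O and 74.3 in O-re, and 4 of 5 O libraries lay above every Y library.

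The comparison of O with Y asks what differed with age without depletion. Arg1 (ENSMUSG00000019987.9, GRCm38 chromosome 10, 24915221 to 24927484, minus strand, protein-coding) rose in old libraries by 5.22 ± 1.38 on the log2 scale (SE; edgeR's quasi-likelihood test, Benjamini-Hochberg adjusted p 0.0407 over all genes), a 37.2-fold difference. The test shares its young libraries with the comparison that singled Arg1 out and is not independent of it. The call was lost, with an edgeR adjusted p between 0.0508 and 0.275, when any one of Y replicates 1, 2, 4, 5, 6 and 7, Y-re replicate 1 or O replicates 3 and 5 was left out. Without O replicate 3 the change was 3.55, and without Y replicate 3 it was 6.88 (edgeR adjusted p 0.0102). It was also lost with sample quality weights (limma voom, adjusted p 0.0969), on deposited TPM (limma, adjusted p 0.0908) and with the run of library numbers as a term (3.95, edgeR adjusted p 0.138).

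The comparison was also fitted within each run. Within numbers 1 to 11 it was at 1.16 to 18.65 CPM in 3 young libraries and at 1.46 and 54.7 CPM in 2 old ones, a change of 1.89 (edgeR adjusted p 1.0). Within numbers 12 to 24 Arg1 was at 0.528 to 0.961 CPM in 4 young libraries and at 29.7 to 507 CPM in 3 old ones. These did not overlap, and the change was 8.08 (edgeR adjusted p 0.000834). Of all genes, 15.7% were called within numbers 12 to 24 and 0.00533% within 1 to 11. The difference between the runs, 6.20 ± 2.15 (SE), had an unadjusted p of 0.0101 and an edgeR adjusted p of 0.516, so it was not called.

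After repopulation Arg1 stood at 0.99 ± 1.44 (SE) on the log2 scale in Y-re relative to Y, which was not called (edgeR adjusted p 0.82). In O-re relative to O its fitted value was 0.58 ± 1.21 (SE), given as a description. It was 2.25 without O replicate 3, 0.26 to 0.38 without O replicates 1, 2 or 4, and 0.09 and 0.13 without O-re replicates 6 and 8. Relative to Y, O-re libraries stood 5.80 ± 1.37 higher on the log2 scale, which is the difference Arg1 was noticed for. That value was 2.20 within library numbers 1 to 11, where O-re held 2.57 to 119 CPM, and 9.32 within 12 to 24, where O-re held 243 to 619 CPM.

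Markers of other myeloid cells also varied between libraries. The monocyte and dendritic cell sums were high where Arg1 was highest, while the neutrophil sum was not regularly so. In O replicate 3, at 507 CPM of Arg1, the 12 monocyte markers summed to 5608 CPM and the 12 microglia markers to 11340 CPM; in O replicate 1, at 1.46 CPM of Arg1, these sums were 1232 and 29850 CPM. Across groups the monocyte sum was 832 to 2458 CPM in Y, 1242 to 1708 in Y-re, 1232 to 5608 in O and 889 to 8618 in O-re. Most of that sum in Y came from Fn1 (53.9%) and Nr4a1 (41.4%), which are not confined to monocytes. The dendritic cell sum was 15.7 to 31.0 CPM in Y, 26.4 to 47.5 in Y-re, 25.5 to 189 in O and 19.2 to 135 in O-re. The neutrophil sum was 11.3 to 88.1 CPM in Y, 66.8 to 162 in Y-re, 93.1 to 225 in O and 69.5 to 369.5 in O-re. Its highest value was in O-re replicate 6, which was highest in Arg1, but O replicates 3 and 1 held 172 and 170 CPM. All 12 markers of each of these lists had a count in every group, apart from Elane, which had none in Y-re.

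In O versus Y, 7 of 12 monocyte markers rose, among them Ly6c2 by 6.25 ± 0.997 (SE) and Ccr2 by 3.93 ± 0.86 (SE) on the log2 scale, with edgeR adjusted p of 0.00367 and 0.0149. So did 4 of 12 dendritic cell, 5 of 11 tested neutrophil and 3 of 12 border-associated macrophage markers, where 2.60% of all genes were called higher. The T, NK and B cell markers summed to at most 5.45 CPM in any library, and none of the 7 tested was called. The part of these cells in the Arg1 values was not tested. In bulk RNA, more cells of a type and more RNA per cell cannot be told apart.

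**Figure D2:**
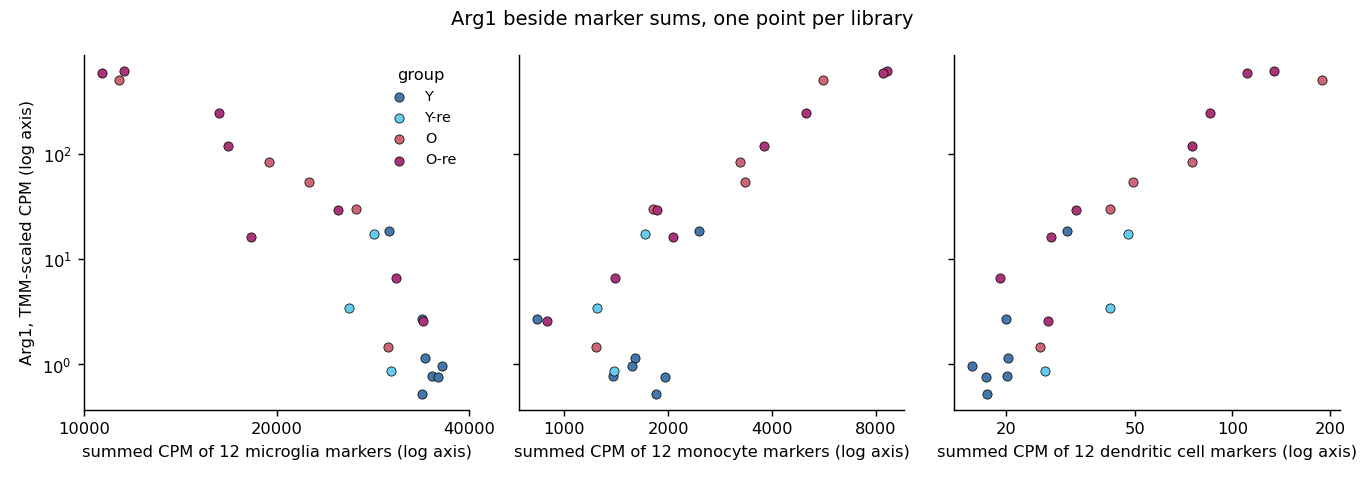
Arg1 (TMM-scaled CPM, log axis) against the summed CPM of 12 microglia, 12 monocyte and 12 dendritic cell markers (log axes), one point per library, coloured by group. O replicate 3 and O-re replicates 6, 7 and 8, the 4 libraries highest in Arg1, hold microglia sums of 10670 to 16240 CPM.

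By a fixed measure of likeness, Spearman's rho of log2 CPM over all 23 libraries among 9706 genes whose mean reached 5 CPM, the genes most like Arg1 were Cd177 (0.957), Fem1c (0.954), S100a11 (0.949), Clec4d (0.948) and Tiparp (0.948). Over the 8 O-re libraries alone the same genes had rho of 1.0, 0.929, 1.0, 0.976 and 0.976. Cd177 is a surface protein known from neutrophils, S100a11 a calcium-binding protein, Clec4d a C-type lectin receptor of myeloid cells, and Tiparp an ADP-ribosyltransferase induced through the aryl hydrocarbon receptor. Cd177 ran from 0.528 to 4.67 CPM in Y and from 2.51 to 65.6 CPM in O-re. The points are whole libraries that differ in their marker sums, and the values are a description.

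Arg2, the mitochondrial arginase encoded by a separate gene, rose in O relative to Y by 3.34 ± 0.89 (SE; edgeR adjusted p 0.0421). It was at 0.329 to 2.39 CPM in Y, 0.265 to 3.09 in Y-re, 1.28 to 22.8 in O and 0.102 to 19.4 in O-re. Per length, on the deposited TPM scale, the ratio of Arg1 to Arg2 was 0.772 to 7.50 over the Y libraries, 3.00 to 5.43 in Y-re, 2.38 to 21.8 in O and 7.42 to 75.0 in O-re. Arg2 was thus the more abundant arginase in a single library, Y replicate 6. In GENCODE M21 transcripts no 50-base word of either gene occurs in another gene.

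Nos2 was nearly silent. The lowest, median and highest levels were 0, 0.146 and 1.76 CPM in Y, and 0, 0.206 and 0.597 CPM in O-re. The 5 O libraries held 0.0201, 0.325, 1.08, 0.288 and 0.224 CPM, and the Y-re libraries held 0, 0 and 0.0442 CPM. Of the 111 counts in Y, 78 came from Y replicate 3, and all 3 Y-re libraries together held 2 counts. The ratio of summed Nos2 counts per total, Y-re to Y, was 0.0417 with an exact 95% interval of 0.00499 to 0.154, and Y-re to O-re it was 0.0654 (0.0078 to 0.243), covering counting error only. Without Y replicate 3, Y held 33 counts and the first ratio was 0.12 (0.014 to 0.471). The edgeR fit called neither difference, with adjusted p of 0.236 and 0.413, and its value for Y-re versus Y, -4.36 ± 1.76 (SE), was -2.82 without Y replicate 3 and -7.09 without Y-re replicate 3. Within library numbers 12 to 24, O-re versus Y-re was called (4.57, edgeR adjusted p 0.0111), where 36.3% of all genes were.

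Odc1 was present in every library, at 73.4 to 109 CPM in Y, 91.6, 72.9 and 103 CPM in Y-re, 75.4 to 124 CPM in O and 70.5 to 222 CPM in O-re. The highest value belonged to O-re replicate 6, which also had the highest Arg1. Odc1 differed between O-re and O by 0.28 ± 0.19 (SE, edgeR adjusted p 0.686) and between O-re and Y-re by 0.48 ± 0.23 (SE, edgeR adjusted p 0.428), and neither was called. Within numbers 12 to 24 the latter was called (0.79, edgeR adjusted p 0.0145), where 36.3% of all genes were. Of the 50-base words in its transcripts, 24.3% also occur in other transcripts, most of them predicted genes, so its count is less certain than those of the other members.

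Retnla and Mgl2 were the members called between young repopulated and young libraries. Retnla encodes the secreted resistin-like molecule alpha, also called FIZZ1, and Mgl2 encodes the C-type lectin CD301b, found on alternatively activated macrophages and a subset of dendritic cells. In Y-re relative to Y both rose. There 1.34% of all genes were called and 0.828% were called higher, and Mgl2 was the 1 called of the 8 members other than Retnla, which is not read against that share because it passed the filter through the repopulated groups. The sequences just before their annotated starts are shown because both genes rose together. They come from RefSeq (GRCm38.p6), both on the plus strand, and stop before the earlier of the RefSeq and GENCODE starts. Retnla is taken from chr16:48842359-48842550 and Mgl2 from chr11:70130107-70130328, and capitals mark a match to the STAT6 motif, which is TTC and GAA with 4 bases of any kind between them.
Retnla: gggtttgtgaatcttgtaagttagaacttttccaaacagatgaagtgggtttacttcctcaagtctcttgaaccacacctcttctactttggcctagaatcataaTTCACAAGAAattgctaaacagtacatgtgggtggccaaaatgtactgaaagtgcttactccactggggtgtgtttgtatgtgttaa
Mgl2: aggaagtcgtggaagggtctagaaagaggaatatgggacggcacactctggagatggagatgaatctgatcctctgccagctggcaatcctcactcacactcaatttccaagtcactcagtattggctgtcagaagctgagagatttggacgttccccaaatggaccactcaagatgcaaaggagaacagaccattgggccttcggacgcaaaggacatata

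RefSeq windows of 250 bases before the start were available for 7 of the 9 members, Arg1 and Nos2 not among them. Searched on both strands, the STAT6 motif occurred once, in Retnla, beginning 145 bases before the RefSeq start, and in none of the other windows of the members. The same motif occurs in 5.85% of 32851 such windows. The general STAT motif, TTC and GAA with a spacer of 3 bases (7.02% of windows), and the PPAR direct repeat, AGGTCA repeated with a spacer of 1 base (0.0335%), had no match in the members' windows. The STAT motifs differ in spacer and cannot match the same letters. A match is a run of letters and not a measured binding site.

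Retnla was absent from 6 of 7 young libraries, and Y replicate 4 held 4 counts, 0.0909 CPM. A count of 0 allows up to 3 counts in a library. The Y-re libraries held 0.641, 0.489 and 0.221 CPM, all above every Y library. The O libraries held 0.120, 0, 0.0221, 0.0443 and 0 CPM, from 9 counts in all. The O-re libraries ran from 0.109 through a median of 0.352 to 1.47 CPM, and 7 of 8 lay above every O library. The gene was thus detected in all 11 repopulated libraries and in 4 of 12 others, at levels that never passed 1.5 CPM. Because Retnla passed the filter through the repopulated groups, that split is a description and no support for a difference.

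Retnla rose in Y-re relative to Y by 4.89 ± 1.17 on the log2 scale (SE; edgeR adjusted p 0.0392), a size that depends on the prior count because Y held so few reads. The ratio of summed counts per total was 35.9, with an exact 95% interval of 13.3 to 136 for counting error only. The call was lost without any one of the 3 Y-re libraries or of Y replicates 1, 2, 5, 6 and 7 (edgeR adjusted p 0.0627 to 0.165), without the filter on low counts (0.0621) and on TPM (limma, 0.0646). In O-re relative to O the fitted change was 3.63 ± 1.12 (SE), not called by edgeR (adjusted p 0.175), and the ratio of summed counts was 12.7 (6.57 to 28.2). DESeq2 called it (adjusted p 0.0197), as did voom with quality weights (0.0317) and edgeR within numbers 12 to 24 (0.0499), where 12.7% of all genes were called.

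Mgl2 (ENSMUSG00000040950.13, GRCm38 chromosome 11, 70130329 to 70137550, plus strand, protein-coding) had a lowest, median and highest level of 0.406, 0.811 and 1.57 CPM in Y. The Y-re libraries held 11.5, 9.58 and 6.03 CPM, and the lowest of them lay above the highest Y library. The O libraries held 2.79, 1.55, 2.43, 3.28 and 3.96 CPM, all below the Y-re libraries, and 4 of 5 lay above every Y library. In O-re the level ran from 1.82 through a median of 6.32 to 16.6 CPM, with 5 of 8 libraries above every O library. All 8 lay above every Y library, a separation that 0.983% of all genes showed. The members were chosen with that comparison in view, so the separation is a description and no support.

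Mgl2 rose in Y-re relative to Y by 3.36 ± 0.52 (SE; edgeR adjusted p 0.00215), a 10.3-fold difference, and stayed called in all 23 fits that left out 1 library. It stood 1.67 ± 0.47 (SE) higher in O than in Y, just outside the threshold (edgeR adjusted p 0.055), and was called there by DESeq2 (0.00954), with the run of library numbers as a term (edgeR, 0.0371) with only both groups fitted (edgeR, 0.0272) and without any one of O replicate 2 or O-re replicates 1, 4, 5 and 8 (edgeR, 0.0393 to 0.0467). In O-re relative to O it stood 1.35 ± 0.47 (SE) higher without being called (edgeR adjusted p 0.256). Within library numbers 12 to 24 it was called (1.78, edgeR adjusted p 0.0112), where 12.7% of all genes were. The difference between both repopulation effects, old less young, was -2.01 ± 0.69 (SE), with an unadjusted p of 0.00789 and an edgeR adjusted p of 0.464, so it was not called. O-re and Y-re differed in Mgl2 by -0.34 ± 0.52 (SE; edgeR adjusted p 0.812), with a 95% interval of -1.37 to 0.68.

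Some markers of other myeloid cells also rose in Y-re relative to Y. Cd209a, a C-type lectin of dendritic cells and monocyte-derived cells, rose in Y-re relative to Y by 5.23 ± 0.80 (SE; edgeR adjusted p 0.00195), from a mean of 0.170 ± 0.211 (SD, n = 7) to 6.45 ± 2.49 CPM (SD, n = 3), and was the 1 of 12 dendritic cell markers called. Of 12 border-associated macrophage markers, Ms4a7 rose (2.47 ± 0.59 SE, edgeR adjusted p 0.0394), and of 11 tested neutrophil markers Mmp8 rose. No monocyte marker of 12 was called. Over all genes, 1.34% were called in Y-re versus Y and 0.828% were called higher. The border-associated macrophage sum was 1096 to 1772 CPM in Y, 1561 to 1899 in Y-re, 1325 to 2360 in O and 699 to 3149 in O-re, 84.7% of it from Stab1 in Y. Mean levels in O and Y-re were 4.33 and 6.45 CPM for Cd209a, 114 and 94.3 for Ms4a7, and 22.6 and 16.2 for Mmp8. These markers are named because they were called higher in Y-re, so they do not stand for their lists. For Ly6c2 and Ccr2, the monocyte markers named above, the means in O and Y-re were 139 and 19.2, and 189 and 65.1 CPM. For Retnla the means in O and Y-re were 0.0373 and 0.450 CPM, and for Mgl2 2.80 and 9.03 CPM. The part of other myeloid cells in the Retnla and Mgl2 values was not tested.

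Clec10a, the neighbouring lectin gene CD301a, shares 270 of its 50-base words with Mgl2, and 13.1% of the Mgl2 words occur in some other gene, so reads in those stretches are divided by estimation. Clec10a rose in O relative to Y by 2.33 ± 0.60 (SE; edgeR adjusted p 0.0363), with every O library (5.95 to 24.1 CPM) above every Y library (0.468 to 5.52 CPM), which held for 1.43% of all genes. In Y-re it held 4.48 to 8.44 CPM and in O-re 2.31 to 25.9 CPM, and neither repopulation effect was called (edgeR adjusted p 0.296 and 0.999). Retnlg, a relative of Retnla known from neutrophil granules, rose in O relative to Y by 2.18 ± 0.57 (SE; edgeR adjusted p 0.0378) and was at 0.480 to 4.34 CPM in Y and 2.49 to 11.3 CPM in O.

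**Figure D3:**
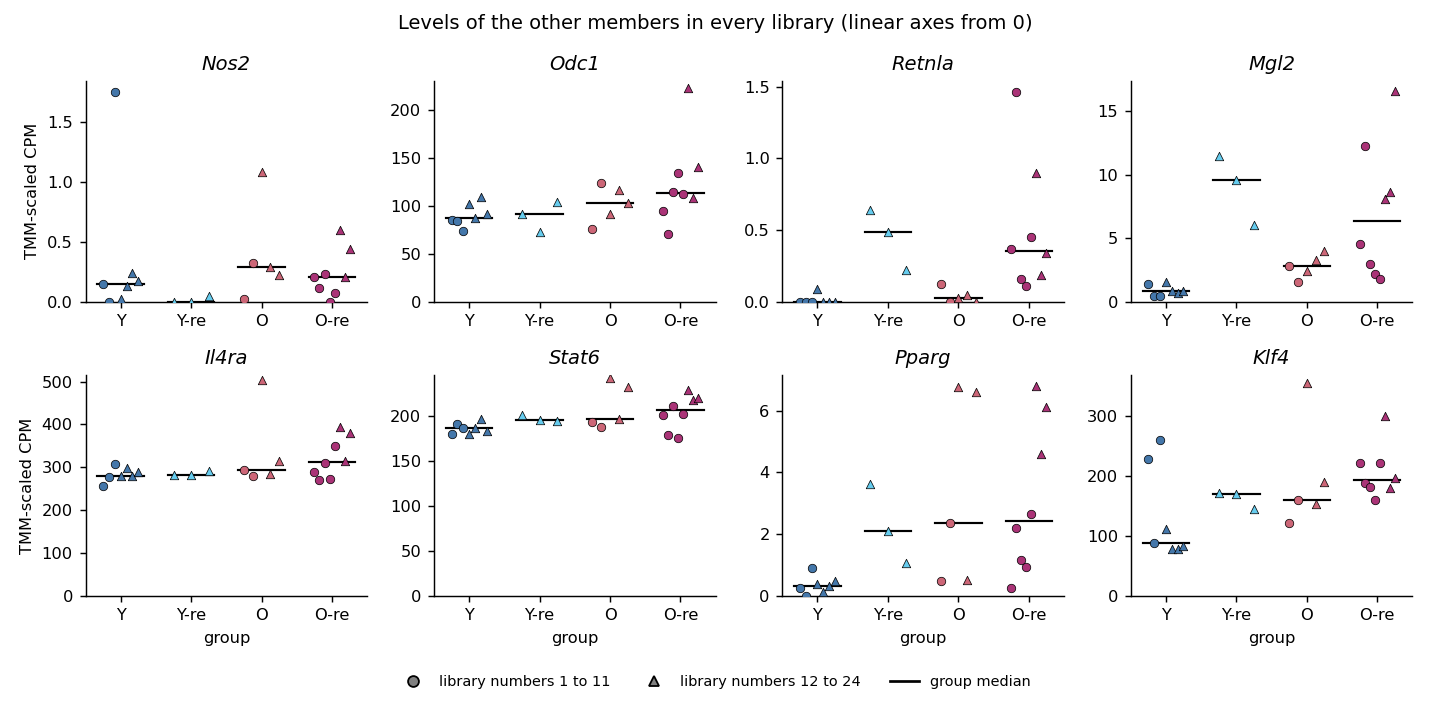
Levels (TMM-scaled CPM, linear axes from 0) of the other 8 members in each library by group, with circles for library numbers 1 to 11, triangles for 12 to 24 and bars at group medians. The Y-re libraries lie above all Y libraries for Retnla, Mgl2 and Pparg, while Il4ra and Stat6 keep group medians of 280 to 312.5 and 187 to 207 CPM.

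Il4ra, the receptor chain shared by IL-4 and IL-13, was abundant and even. Its lowest, median and highest levels were 256, 280 and 309 CPM in Y and 270.5, 312.5 and 394.5 CPM in O-re. The Y-re libraries held 283, 281 and 290 CPM. The O libraries held 293, 279, 503, 285 and 314 CPM, with O replicate 3 far above the others. Il4ra differed by 0.24 ± 0.13 (SE) between O and Y, by 0.00 ± 0.15 (SE) between Y-re and Y and by -0.06 ± 0.12 (SE) between O-re and O, and none was called (edgeR adjusted p 0.385, 0.995 and 0.951).

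Il4ra acts with a partner chain. Il2rg, the common gamma chain, which joins Il4ra in the receptor of blood cells for IL-4, rose in O relative to Y by 0.80 ± 0.21 (SE; edgeR adjusted p 0.0384), from 43.9 to 56.4 CPM in Y to 58.3 to 139 CPM in O without overlap. In Y-re all 3 libraries lay above every Y library at 66.2 to 88.0 CPM, but the change of 0.59 ± 0.24 (SE) was not called (edgeR adjusted p 0.249). Of all genes, 1.43% had every O library above every Y library, and 5.97% had every Y-re library above every Y library. Il13ra1, the partner of Il4ra in the receptor that also takes IL-13, differed by -0.07 ± 0.13 (SE) between O and Y, with levels of 114 to 154 CPM in Y and 116.5 to 144 CPM in O (edgeR adjusted p 0.858). The common gamma chain also serves other cytokine receptors, and the Il2rg call was lost without any one of Y replicates 1, 2, 4, 5, 6 and 7, Y-re replicate 3 or O replicates 3 and 5.

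Stat6, the transcription factor downstream of Il4ra, was also even. It ran from 180 through a median of 187 to 197 CPM in Y and from 176 through 207 to 229 CPM in O-re. The Y-re libraries held 202, 195 and 194 CPM and the O libraries 193, 188, 242.5, 197 and 232 CPM, with O replicates 3 and 5 above the others. The difference of O from Y, 0.175 ± 0.077 (SE), was not called over all libraries (edgeR adjusted p 0.266) and was called within library numbers 12 to 24 (0.27, edgeR adjusted p 0.0259), where 15.7% of all genes were.

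Pparg, a nuclear receptor for fatty acid ligands that cooperates with Stat6, was scarce in every group. Its lowest, median and highest levels were 0, 0.33 and 0.902 CPM in Y and 0.265, 2.43 and 6.82 CPM in O-re. The O libraries held 0.461, 2.35, 6.79, 0.510 and 6.62 CPM. The Y-re libraries held 3.63, 2.09 and 1.06 CPM, all above every Y library. Retnla, Mgl2 and Pparg were the 3 of 9 members with that separation. Only Mgl2 and Pparg are read against the 5.97% of all genes that showed it. Retnla is not, because it passed the filter through the repopulated groups.

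Pparg (ENSMUSG00000000440.12, GRCm38 chromosome 6, 115360951 to 115490399, plus strand, protein-coding) rose in O relative to Y by 3.23 ± 0.82 (SE; edgeR adjusted p 0.0348), a 9.41-fold difference. In that comparison, where 2.83% of all genes were called, Pparg was the 1 called of the 8 members other than Arg1. The call was lost without any one of Y replicates 1, 4, 5, 6 and 7 or O replicates 3 and 5 (edgeR adjusted p 0.0638 to 0.159), with only both groups fitted (edgeR, 0.054) and on TPM (limma, 0.13). Within library numbers 1 to 11 the value was 1.86 (edgeR adjusted p 1.0), where 0.00533% of all genes were called. In Y-re it stood 2.67 ± 0.89 (SE) above Y, not called (edgeR adjusted p 0.14) but called within numbers 12 to 24 (2.79, edgeR adjusted p 0.0294), where 9.30% of all genes were, and in O-re relative to O its value was -0.11 ± 0.76 (SE; edgeR adjusted p 0.989). Pparg was high in the libraries rich in Arg1 and in the monocyte and dendritic cell sums given above: O replicate 3 held 6.79 CPM and O-re replicate 6 held 6.82 CPM.

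Klf4, a zinc-finger factor induced through Stat6, varied within the young group. It was at 229, 88.7 and 260 CPM in Y replicates 1 to 3 and at 78.2 to 112 CPM in the other 4 young libraries, which are those of library numbers 12 to 15. It held 172, 170.5 and 144.5 CPM in Y-re, 122, 161, 355, 154 and 190 CPM in O and 160 to 300.2 CPM in O-re. The difference of O from Y was 0.56 ± 0.30 (SE; edgeR adjusted p 0.381) over all libraries, -0.45 within numbers 1 to 11 and 1.41 within 12 to 24 (edgeR adjusted p 0.00307), where 15.7% of all genes were called. With quality weights it was called at 0.96 (limma voom, adjusted p 0.00369). In Y-re relative to Y it stood 0.29 ± 0.35 (SE) higher, not called (edgeR adjusted p 0.777), but was called with quality weights (0.79, limma voom adjusted p 0.0103) and within numbers 12 to 24 (0.92, edgeR adjusted p 0.0403), where 9.30% of all genes were. For O versus Y the sizes in the runs differed by 1.87 ± 0.50 (SE, unadjusted p 0.00144), which edgeR did not call (adjusted p 0.516). Klf4 also belongs to the genes that respond to handling of cells, and the 20 immediate early and dissociation genes summed to 12660 to 17480 CPM in Y and 9925 to 19840 CPM in O; their part was not tested.

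**Figure D4:**
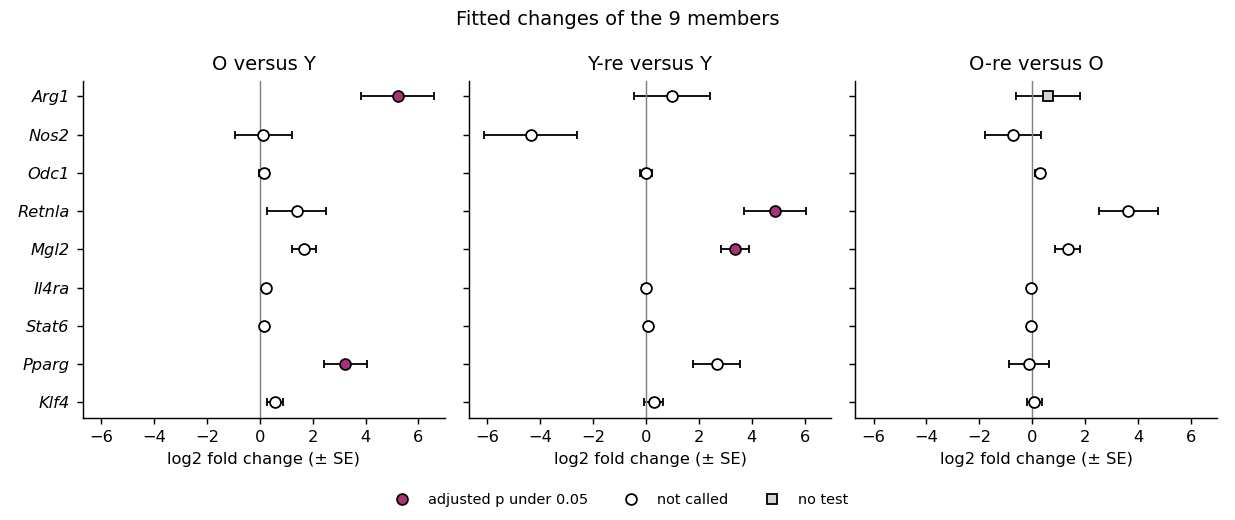
Fitted log2 fold change with its SE (horizontal axis) of the 9 members in O versus Y, Y-re versus Y and O-re versus O, with filled circles for an adjusted p under 0.05, open circles for no call and a grey square where no test was made. Arg1 and Pparg are called in the first comparison, Mgl2 and Retnla in the second and none of the 8 tested members in the third.

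Over the members as a whole, Arg1 and Pparg were called in O versus Y and Mgl2 and Retnla in Y-re versus Y, with the limits given for Arg1 and Retnla. None of the 8 members with a test was called in O-re versus O, where 0.278% of all genes were, or in O-re versus Y-re and the interaction, where 0.00% were called and 2183 and 1542 genes had an unadjusted p under 0.05. The median change of the members was 0.56 in O versus Y, where that of all tested genes was -0.01, 0.29 in Y-re versus Y (-0.04 over all genes) and 0.07 in O-re versus O (0.0037 over all genes). Each of these medians is the value of Klf4, which was not called over all libraries. The members include Arg1 and Retnla, so the medians are a description and show no shift of the members as a set. Il4ra, Stat6, Odc1 and Klf4 were called in none of the 5 tested comparisons, with edgeR adjusted p between 0.266 and 0.995.

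Per length, Il4ra, Stat6, Odc1 and Klf4 had the highest medians in every group. On the deposited TPM scale, which divides by gene length, Il4ra led with group medians of 120 to 134 TPM, and Stat6, Odc1 and Klf4 followed with medians of 57.35 to 117 TPM. The range of Il4ra lay above that of Stat6 in Y and Y-re and overlapped it in O and O-re. The ranges of those 3 overlapped one another in every group except that Klf4 and Stat6 did not in Y-re (79.8 to 93.35 against 93.6 to 100.1 TPM). Arg1 came next in Y, O and O-re with medians of 1.16, 66.4 and 83.5 TPM, and in its highest library, at 728 TPM, it passed Il4ra (167 TPM at most in O-re). In Y-re the median of Mgl2 stood above that of Arg1, though their ranges, 6.82 to 13.1 and 0.99 to 19.8 TPM, overlapped. Nos2 and Retnla were lowest, at medians of at most 0.15 and 1.45 TPM.

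**Figure D5:**
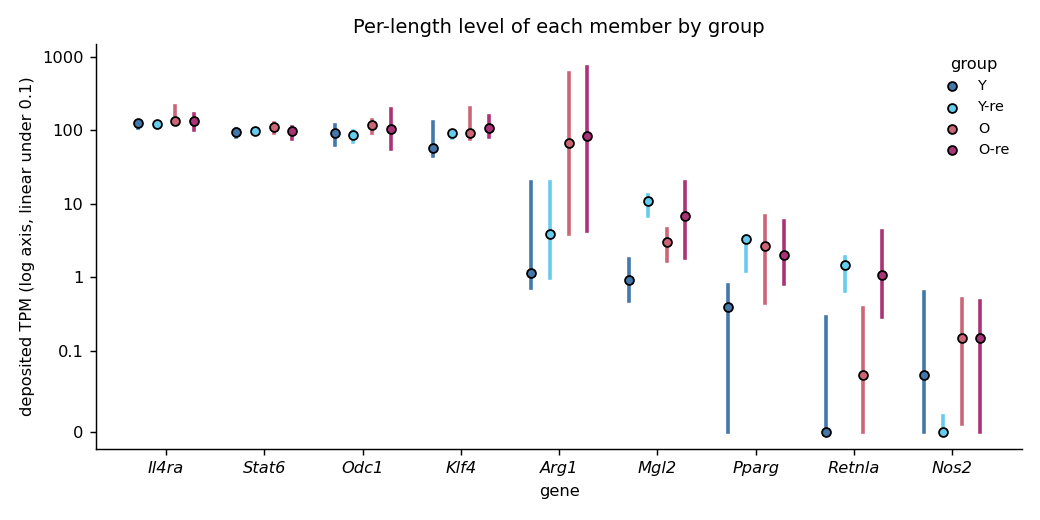
Deposited TPM of each member by group (log axis, linear under 0.1), with a dot at the group median and a line from the lowest to the highest library. Il4ra, Stat6, Odc1 and Klf4 keep group medians of 57.35 to 134 TPM, and the line of Arg1 reaches 728 TPM in O-re.

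The wider pathways were read from 5 gene lists. Of 38 tested alternative activation genes, 5 rose in O relative to Y (13.2%, where 2.60% of all genes rose, median change over the list 0.61). They were Arg1, Pparg, Clec10a, Ccl22 and Il1r2, and Arg1 was chosen on these Y libraries. Ccl22, a chemokine, rose by 3.16 ± 0.77 (SE; edgeR adjusted p 0.0269). Il1r2, the decoy receptor for IL-1, rose by 3.35 ± 0.78 (SE; edgeR adjusted p 0.0203). Of the list's 39 genes, 7 are also in the marker lists used above, Ccl22 among them. The count fell to 0 without any one of Y replicates 4, 6 and 7 or O replicates 3 and 5, to 1 or 2 without Y replicates 1, 2 or 5, and rose to 8 without Y replicate 3, O replicate 1 or O-re replicate 1. It was 0 within library numbers 1 to 11, where 0.00533% of all genes were called, and 17 within 12 to 24, where 15.7% were. In Y-re relative to Y, Mgl2 and Retnla of this list rose and Kdm6b, a histone H3 lysine demethylase linked to the alternative state, fell by 0.91 ± 0.22 (SE; edgeR adjusted p 0.0402), where 0.513% of all genes fell, and without Y replicates 2 or 6 or any Y-re library Mgl2 alone was called.

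Of 31 tested genes of arginine and polyamine metabolism, 3 rose in O relative to Y (9.68%, where 2.60% of all genes rose, and Arg1 was chosen on these Y libraries): Arg1, Arg2 and Ass1, argininosuccinate synthase, which rebuilds arginine from citrulline. Ass1 rose by 1.92 ± 0.33 (SE; edgeR adjusted p 0.0038). It was at 9.20 to 18.1 CPM in Y and 23.3 to 75.7 CPM in O, without overlap, which held for 1.43% of all genes. It also rose in Y-re by 1.65 ± 0.37 (SE; edgeR adjusted p 0.0277), to 33.0 to 40.5 CPM. Its call in O versus Y was kept in every fit that left out 1 library, while that in Y-re versus Y was lost without Y replicates 5, 6 or 7 or any one Y-re library. The calls of Arg1 and Arg2 were lost together, leaving Ass1 alone, without any one of Y replicates 1, 2, 4, 5, 6 and 7, Y-re replicate 1 or O replicates 3 and 5, and that of Arg2 also without O replicate 2. Within library numbers 1 to 11 none of the list was called. The list's median change was 0.06 in O versus Y and -0.14 in Y-re versus Y.

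Of 18 tested genes of IL-4 and IL-13 signalling, Il2rg was the 1 called in O versus Y (5.56%, beside 2.83% of all genes) and none was in Y-re versus Y (1.34% of all genes). Of 24 tested genes of the PPAR and LXR axis, Pparg and Nr1h3, the liver X receptor alpha (2.95 ± 0.61 SE, edgeR adjusted p 0.0109), rose in O relative to Y (8.33% of the list), and Nr1h3 lost its call without O replicate 3. Apoe, the apolipoprotein of that axis and 4.17% of the list, rose in Y-re relative to Y by 1.59 ± 0.35 (SE; edgeR adjusted p 0.0251), and lost its call without Y-re replicates 1 or 2. Of 23 tested classical activation genes, Cd38, an NAD-consuming surface enzyme, and Fpr2, a formyl peptide receptor, rose in O relative to Y by 3.23 ± 0.80 and 3.52 ± 0.77 (SE), with edgeR adjusted p of 0.0292 and 0.015, 8.7% of the list. Without O replicate 3 neither was called, and without Y replicates 1, 2, 4, 5, 6 or 7 or O replicate 5 Fpr2 alone was. Ccl5, a chemokine and 4.35% of the list, rose in Y-re relative to Y by 2.52 ± 0.49 (SE; edgeR adjusted p 0.0117) and lost its call without Y-re replicates 1 or 3. No gene of the 5 lists was called in O-re versus O, O-re versus Y-re or the interaction.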

How the data were processed

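Poly(A) RNA of 23 microglia libraries was sequenced as single reads of 50 nt, from 2.4 to 147 ng of RNA, per the labels' protocols. The submitters' processing notes name FastQC 0.11.5, STAR, RSEM, limma and GRCm38. The sources used here do not name the annotation or say whether counting used strand. The authors deposited RSEM expected counts, which are estimates that divide reads among similar genes. Of these, 87.26% were whole within 1e-06, and all were rounded here. The authors also deposited TPM, used for levels between genes and 1 alternative. With edgeR 4.0.16 (R 4.3.3), low counts were removed by filterByExpr, libraries were scaled by TMM, and each gene was fitted with 1 coefficient per group over all 23 libraries, with the quasi-likelihood test and Benjamini-Hochberg adjustment over 18720 genes (called under 0.05). SE is the log2 fold change over the root of F. The edgeR fit was tested on simulated data for O versus Y alone, with changes set in genes whose mean reached 5 CPM. That test does not cover Mgl2, Pparg, Nos2 and Retnla, which lie below that level, or changes in Y-re. Alternatives used limma 3.58.1 (on log2(TPM + 1) and voom), DESeq2 1.42.0, other scaling, filters, library sets and leaving out each library; the test between runs of library numbers, the list counts under each alternative and the Nos2 ratio without Y replicate 3 were chosen after seeing the data. Members and lists were chosen with earlier results of these data known. Named are all members, the called genes of 5 pathway lists (at most 4 per list and direction), Arg2, Clec10a, Retnlg, Il2rg, Il13ra1 and the 5 genes most like Arg1. Groups came from the labels, replicate numbers from accession order. Depth was 43.66 M to 58.19 M counts (M, 1000000), and intervals on counts cover counting error only. Retnla and Retnlg have another identifier version in GENCODE M21, so no GENCODE coordinates are given for them.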

Additional observations from a re-analysis of the deposited data

Results flagged for a closer look

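In 27 groups of 1 member (groups of 4 to 10 libraries), 2 held a library far from the others. Its gap to the nearest other, divided by the group's range, passed Dixon's 95% limit on the log2 scale of CPM. Gaps in CPM itself can differ from these. Chance gives about 1 in 20 groups. Y replicate 4 was the highest Y library for Retnla at 0.0909 CPM, while the other 6 were at 0, so the gap was the whole range. O replicate 3 was the highest O library for Il4ra at 503 CPM, with a gap of 0.799 of the range on the log2 scale. That library also had the highest Arg1 of its group. No cause was tested for either.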

How the results depend on the processing

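No paired analysis was possible because the labels give the groups no shared replicate numbers. Of the members' calls, Mgl2 in Y-re versus Y was kept under all 32 alternatives that tested it. A mean CPM of at least 5 dropped Mgl2 and Retnla, with means of 4.53 and 0.243 CPM over all libraries, so it tested neither. The other calls were lost in part, as given with each. In O versus Y, where 2 members were called, 1 was with a mean CPM of at least 5, a filter that drops Pparg, 0 on TPM, 0 within library numbers 1 to 11, 5 within 12 to 24, and 0 to 3 without 1 library. In O-re versus O (0 called), DESeq2 and voom called 1 each and numbers 12 to 24 called 2. In Y-re versus Y (2 called), no filter, TPM and only the groups compared gave 1 each, a mean CPM of at least 5 gave 0, voom and numbers 12 to 24 gave 4 each, and leaving out 1 library 1 to 2. In O-re versus Y-re (0 called), numbers 12 to 24 gave 2. Arg1 in O-re versus Y (5.80) was 2.20 and 9.32 within the runs and 5.30 to 7.46 without 1 library. Of 54 member values, 20 changed sign under some alternative, and 0 of those were called; among them are untested values of Arg1 in the interaction (-2.07 to 1.32 without 1 library) and Nos2 in O-re versus Y (-0.95 to 0.96). In O versus Y, Nos2 was -0.07 with the run as a term and -1.88 within numbers 1 to 11, and Klf4 was -0.45 there. In O-re versus O, voom gave Il4ra 0.07 and Pparg 0.39, the run term gave Pparg 0.07, TPM gave Nos2 0.0 and Odc1 -0.07, numbers 1 to 11 gave Il4ra 0.06, Stat6 0.03 and Pparg 0.04, and numbers 12 to 24 gave Pparg 0.34 and Klf4 -0.04. In Y-re versus Y, Arg1 was -0.54 with the run term, and Il4ra was -0.09 with it, -0.02 with upper-quartile scaling, a mean CPM of at least 5 and TPM, and -0.0 with RLE and DESeq2. In O-re versus Y-re, Retnla was -0.19 with voom and -0.05 on TPM, Mgl2 0.04 with the run term and 0.28 within numbers 12 to 24, and on TPM Stat6 was -0.03 and Pparg -0.09. In the interaction, Retnla was 0.04 within numbers 12 to 24, and Il4ra 0.06 with voom and 0.08 with the run term. Without 1 library, Nos2 ran from -0.71 to 1.68 in O versus Y. In O-re versus O, Nos2 ran from -1.08 to 0.12, Il4ra from -0.11 to 0.14, Stat6 from -0.08 to 0.01, Pparg from -0.4 to 0.32 and Klf4 from -0.06 to 0.4. In Y-re versus Y, Arg1 ran from -0.73 to 2.65, Il4ra from -0.02 to 0.05 and Odc1 from -0.13 to 0.15. Retnla in O-re versus Y-re ran from -0.33 to 0.48, and in the interaction Il4ra ran from -0.14 to 0.13 and Klf4 from -0.47 to 0.11. Except where a filter dropped members or fewer libraries were fitted, the cause was not tested. Depth limits Nos2 and Retnla, which rest on 0 to 78 counts in a Y library and 9 counts over all O libraries.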
